A study of Mus musculus with 4 samples.

Results

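Hox genes were followed by their place in the 4 clusters through 4 RNA-seq libraries of whole ICR mouse embryos. The members were genes of the count table whose symbol is Hoxa, Hoxb, Hoxc or Hoxd with a number from 1 to 13 and nothing after it, and 38 of the table's 24421 genes were analysed by that rule. The libraries were 1 of wild-type embryos at embryonic day 7.5 (WT E7.5), 1 of wild-type embryos at embryonic day 8.5 (WT E8.5) and 2 of Ddx6 -/- embryos of that same age (KO1 and KO2 for replicates 1 and 2). Ddx6 encodes an RNA helicase of processing bodies that acts in mRNA decay and in repression by microRNAs (miRNAs), and the study asked how embryos develop without it. The KO embryos lacked Ddx6 in all tissues, and each library was a pool. By the study's text, KO1 mixed embryos from before and after head-fold formation and KO2 held embryos from before it alone, so genotype and morphological stage cannot be told apart. Each WT stage has no second library, and nothing in the labels says that KO1 and KO2 came from separate litters, so p-values measure only the spread between these libraries, which may be technical.

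Hox genes encode homeodomain transcription factors that give cells along the head-to-tail axis their regional identity. Mammals carry them in the clusters HoxA, HoxB, HoxC and HoxD, in which genes of the same number (a paralog group) descend from a common ancestor. Genes at the 3′ end of a cluster (low numbers) switch on first and act as far forward as the hindbrain, and genes toward the 5′ end (high numbers) switch on later and act in the trunk, the tail bud and the limbs. In the mouse this begins at gastrulation, when retinoic acid, Wnt and Fgf signals and the Cdx factors activate the clusters, and Polycomb proteins keep the genes that are still silent closed. In GRCm38, the assembly of the study's mm10 build, the HoxA genes analysed span chr6:52162417-52260880 with 10 genes on the minus strand. Those of HoxB span chr11:96194316-96368256 with 10, HoxC chr15:102921103-103036852 with 9 and HoxD chr2:74668310-74765142 with 9, all on the plus strand.

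In these libraries the Hox transcripts of WT E8.5 embryos were low in KO2 across paralog groups 1 to 9 and closer to their WT levels in groups 10 to 13 of HoxA and HoxD. In KO1 the genes at the 3′ ends of HoxA and HoxB were within 1 log2 unit of the WT level, and those tested from group 7 on were lower. The tested HoxC genes were low throughout, and HoxD did not follow that order. Hoxa7, Hoxa9, Hoxa13 and every tested HoxC gene but Hoxc6 reached 10 reads, the minimum for testing, in WT E8.5 alone. These genes thus had to be lower in the KO libraries. Summed over the 38 genes, transcripts stood at 65.7% of WT E8.5 in KO1 and at 11.9% in KO2, with WT E7.5 at 29.1%. The sum for groups 1 to 3 was 106% of WT E8.5 in KO1 and 13.7% in KO2. For groups 10 to 13 of HoxA and HoxD the order turned, at 27.0% in KO1 and 65.3% in KO2. Hoxa10 and Hoxa11 gave 82 and 51 of the 187 reads of that sum in KO2. By gene, 3 of 32 tested Hox genes (9.4%) were higher in KO2 than in KO1 by more than 1 log2 unit. That share was near the 5.93% of all genes tested. Hoxc10, outside that set, had 22 reads in WT E8.5 and 1 in each KO library. These percentages are of CPM, a read count divided by the library total and scaled by edgeR's TMM factors so that libraries of different depth can be compared. In whole embryos, fewer cells of a type and less RNA per cell cannot be told apart.

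The clusters also hold 2 miRNA families, miR-10 and miR-196, whose known targets include Hox mRNAs. Their mature sequences, from RefSeq (GRCm38.p6), are shown because DDX6 acts in repression by miRNAs, with the seed (bases 2 to 8) in capitals.
miR-10a-5p (HoxB, chr11:96317186-96317208, + strand): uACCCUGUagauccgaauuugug
miR-10b-5p (HoxD, chr2:74726074-74726096, + strand): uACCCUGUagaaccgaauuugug
miR-196a-5p (HoxB, chr11:96265187-96265208, + strand, and HoxC, chr15:102973365-102973386, + strand): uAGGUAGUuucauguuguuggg
miR-196b-5p (HoxA, chr6:52230129-52230150, - strand): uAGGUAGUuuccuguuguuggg
The members of each family share the seed and differ outside it. Each family was matched to 3′ untranslated regions (UTRs) by the 8 letters that pair with its seed and end in A, which were ACAGGGTA for miR-10 and ACTACCTA for miR-196. The miR-196 letters were in the annotated 3′ UTR of 5 of 38 Hox genes, against 1.44% of the 13435 tested genes with an annotated 3′ UTR (the longest of each gene in GENCODE vM21, GRCm38). Hoxa7 held 4 of them. The miR-10 letters were in 3 Hox genes, Hoxa3, Hoxb3 and Hoxd1, against 2.42%. The miR-196 stretches are printed with the matched letters in capitals, 1 for each gene and the 5′-most for Hoxa7. The capitals begin at base 456 of 827 in the 3′ UTR of Hoxa5, 719 of 1635 in Hoxa7, 459 of 641 in Hoxb6, 168 of 532 in Hoxb7 and 892 of 966 in Hoxc8.
Hoxa5: atatttttattcaaACTACCTA
Hoxa7: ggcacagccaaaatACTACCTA
Hoxb6: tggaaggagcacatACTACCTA
Hoxb7: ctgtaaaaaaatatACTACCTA
Hoxc8: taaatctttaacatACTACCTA
A match of letters is a description and does not show that the site is used.

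Promoters of 22 of the 38 Hox genes were found in the RefSeq table (GRCm38.p6, 250 bases before to 50 after the start). The letters TTTATNG, which Cdx factors bind, were searched on both strands because Cdx1, Cdx2 and Cdx4 activate Hox genes. They occurred in the promoters of 2 Hox genes, Hoxb8 and Hoxd4, with 3 matches each, and in 10.9% of 32851 promoters. Both promoters are shown with the matches in capitals.
Hoxb8 (chr11:96281655-96281954, + strand): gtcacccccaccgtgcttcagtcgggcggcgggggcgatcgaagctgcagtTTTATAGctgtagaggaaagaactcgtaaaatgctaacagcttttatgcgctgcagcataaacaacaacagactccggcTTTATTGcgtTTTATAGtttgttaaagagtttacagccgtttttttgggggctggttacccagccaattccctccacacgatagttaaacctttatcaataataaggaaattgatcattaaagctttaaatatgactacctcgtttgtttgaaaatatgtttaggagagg
Hoxd4 (chr2:74721728-74722027, + strand): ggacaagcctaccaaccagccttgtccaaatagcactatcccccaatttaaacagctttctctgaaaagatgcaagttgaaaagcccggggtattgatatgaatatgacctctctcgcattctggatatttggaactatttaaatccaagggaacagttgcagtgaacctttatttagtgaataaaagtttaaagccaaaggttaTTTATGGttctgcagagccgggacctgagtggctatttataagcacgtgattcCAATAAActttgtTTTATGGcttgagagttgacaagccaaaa
The letters AGGTCA, bound by retinoic acid receptors, occurred in 7 Hox genes (Hoxa5, Hoxb4, Hoxc4, Hoxd3, Hoxd4, Hoxd8 and Hoxd10) and in 16.3% of all promoters. The Pbx-Hox letters TGATTNAT occurred in Hoxa2 and Hoxd11, against 3.22%. Hox promoters had a median ratio of observed to expected CpG of 0.626 against 0.384 over all promoters.

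Total counts ran from 8198402 in KO1 to 12562640 in WT E8.5. Ddx6 itself had 2943 reads in WT E7.5, 5715 in WT E8.5, 706 in KO1 and 929 in KO2, lower in both KO libraries than in either WT library. Marker genes of tissues around the embryo differed between the libraries. The 5 listed markers of trophoblast giant cells summed to 3.36 CPM in WT E7.5, 0.405 in WT E8.5, 0.957 in KO1 and 492 in KO2, led by Prl3d1 with 4156 reads in KO2, and Prl3b1 had 0 counts in each library. The 4 markers of extraembryonic ectoderm summed to 297, 18.4, 26.3 and 288 CPM in that order. The last sum in KO2 was mostly Eomes, also a gene of the primitive streak, with 1333 reads in WT E7.5, 64 in WT E8.5, 77 in KO1 and 3128 in KO2. Elf5, with 795, 3, 3 and 10 reads, and Esrrb, with 532, 37, 22 and 33, were high in WT E7.5 alone. KO2 was thus high in markers of giant cells but not in Elf5 or Esrrb, and the part of these tissues in the Hox results was not tested.

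Of the 38 members, 32 had at least 10 reads in at least 1 library and entered the comparisons. The other 6 were Hoxa6, Hoxb13, Hoxc11, Hoxc12, Hoxc13 and Hoxd12. Hoxc12 and Hoxd12 had 0 counts in each library, which allows up to 3 reads in each. Hoxa6 had 6 reads in WT E8.5 and 0 elsewhere, and Hoxb13 had 3 reads in WT E7.5 and 0 elsewhere. Hoxc11 had 1, 5, 0 and 0 reads in WT E7.5, WT E8.5, KO1 and KO2, and Hoxc13 had 2, 4, 5 and 6. Of the 32, 9 passed the minimum through WT E8.5 alone (Hoxa4, Hoxa7, Hoxa9, Hoxa13, Hoxc4, Hoxc5, Hoxc8, Hoxc9 and Hoxc10), so that they had to be lower in the other libraries, and counts are also given below for the 23 that reached it in another library.

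**Figure D1:**
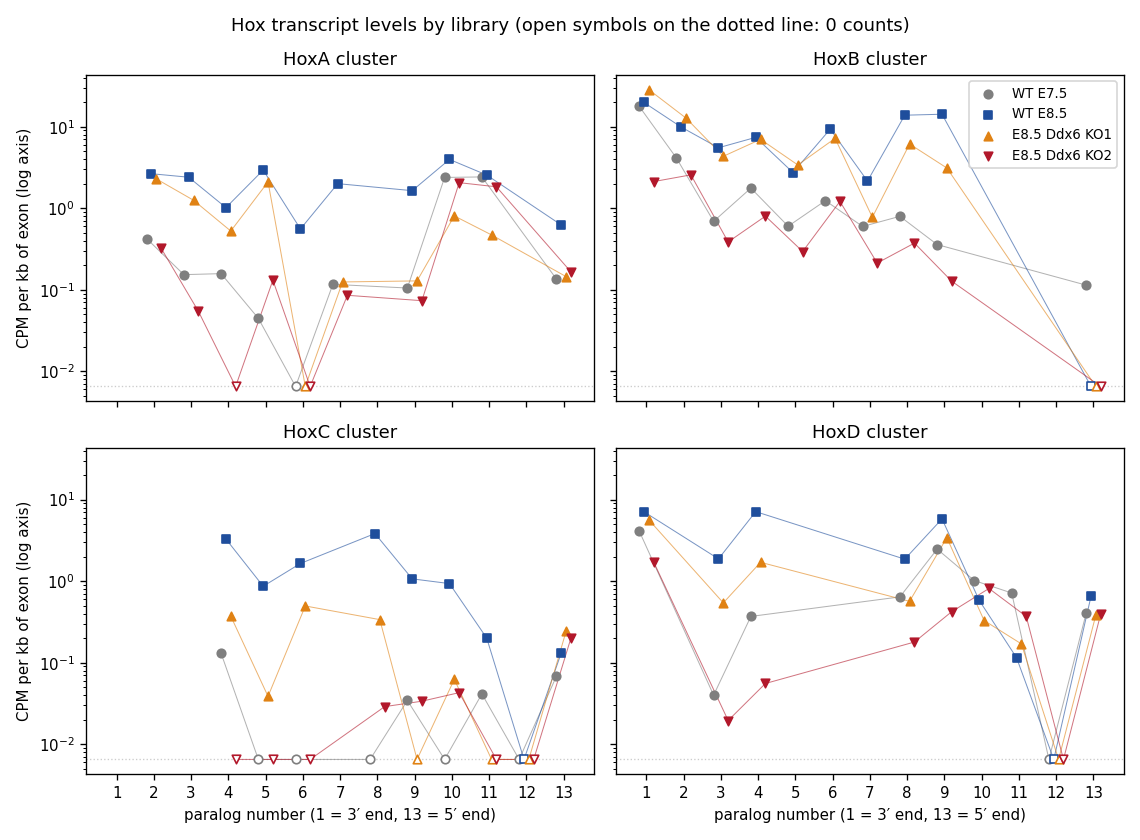
Transcript level of each Hox gene in CPM per kilobase of exon (log axis) against its paralog number, with 1 panel per cluster and 1 symbol per library; open symbols on the dotted line are genes with 0 counts. WT E8.5 (blue squares) lies highest over most of groups 3 to 9, KO2 (red) lies near or under WT E7.5 (grey), and the HoxC panel is nearly empty outside WT E8.5.

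Wild-type embryos of the 2 stages were compared to place the clusters in time. Over the genes analysed, HoxB gave the most transcript and HoxC the least at either stage. Per kilobase of exon, HoxB summed to 28.1 CPM at E7.5 and 84.9 at E8.5, HoxD to 9.81 and 25.1, HoxA to 5.95 and 20.4, and HoxC to 0.275 and 11.97. HoxC (chromosome 15) was thus close to silent at E7.5, with 8 reads over its 9 genes against 383 at E8.5. By paralog group, group 1 led at both stages, at 21.96 CPM per kilobase at E7.5 and 26.9 at E8.5. At E7.5 group 2 followed at 4.56, group 10 at 3.40, group 11 at 3.18 and group 9 at 2.97. Groups 3 to 8 were lower at that stage, from 0.647 for group 5 to 2.42 for group 4. At E8.5 the next were group 9 at 22.7, group 8 at 19.5, group 4 at 18.8 and group 2 at 12.5, whereas groups 10, 11 and 13 stood at 5.48, 2.87 and 1.41. Levels of group 3 depend on the gene model, since its E8.5 sum was 9.79 with all annotated exons and 15.6 with the longest transcript.

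Between E7.5 and E8.5, 25 of the 32 Hox genes were higher by more than 1 on the log2 scale, against 12.2% of the 14393 genes tested, and 1 was lower, against 7.82%. Of the 23 genes not dependent on WT E8.5 for passing the minimum, 16 were higher, against 11.2%. The median change was 2.61 for Hox genes and -0.02 for all genes tested. It was 2.39 for groups 1 to 3, 3.76 for groups 4 to 8 and 1.20 for groups 9 to 13, and over the 23 genes these were 2.39, 2.83 and 0.60. All 14 tested genes of groups 4 to 8 were higher at E8.5. The 7 that were not higher past the threshold lay at the ends, as Hoxb1, Hoxd1, Hoxa10, Hoxa11, Hoxd10, Hoxd11 and Hoxd13.

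Hoxb1 and Hoxd1, the 3′-most genes of HoxB and HoxD, were already on at E7.5. The next HoxD genes, Hoxd3 and Hoxd4, had 2 and 13 reads at that stage. These were fewer than in Hoxd8, Hoxd9, Hoxd10 and Hoxd11, with 21, 63, 22 and 36. Hoxb1, which specifies a hindbrain segment and is among the first Hox genes switched on in the primitive streak, had 493 reads in WT E7.5 and 567 in WT E8.5, a log2 change of 0.15 with a 95% counting interval of -0.02 to 0.33. Hoxd1 had 92 and 163 reads. Hoxa2, which acts in the hindbrain and the arches of the face, had 9 and 58 reads, a change of 2.39 (interval 1.62 to 3.84). Counting intervals here and below are exact Clopper-Pearson intervals and cover counting error alone, since reads are not independent molecules.

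Large differences between the stages were found in each cluster. Hoxa5 had 1 read at E7.5 and 68 at E8.5, and Hoxd3 had 2 and 97. Hoxc8, a gene of the thoracic region, had 0 reads at E7.5 and 134 at E8.5, at least 43.2-fold higher against the floor of 3 reads. Hoxb9, a thoracic gene, had 11 and 451 reads, a log2 change of 5.06 (4.46 to 6.32). Hoxb8, next to it, had 25 and 449. Hoxa9 had 7 and 113 reads and Hoxd4 had 13 and 259. In contrast Hoxd11, which with Hoxa11 patterns kidney and forearm, had 36 reads at E7.5 and 6 at E8.5, a change of -2.27 (-4.17 to -1.37), and its neighbour Hoxd10 had 22 and 13. Hoxd11 shares 10.8% of its exon bases with an annotated neighbour on the same strand.

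The KO libraries were then set against WT E8.5, their own age. KO1 had 17 of 32 Hox genes lower by more than 1, against 3.18% of all genes tested, and 0 higher, against 5.07%. KO2 had 27 lower, against 5.89%, and 1 higher, against 9.48%. In both KO libraries 15 were lower, against 1.74%, and 0 were higher, against 3.48%. Among the 23 genes that passed the minimum in a library other than WT E8.5, 9 were lower in KO1, against 2.57%, and 18 in KO2, against 4.94%. Of these 23, 0 were higher in both, against 3.54%, and 7 were lower in both, against 1.18%, namely Hoxb7, Hoxb8, Hoxb9, Hoxc6, Hoxd3, Hoxd4 and Hoxd8. The median change of the 32 was -1.26 in KO1 and -3.26 in KO2, or -3.14 in KO2 with genes at 0 counts set to the floor, beside medians of 0.00 in either library over all genes tested. Over the 23 it was -0.67 in KO1 and -2.98 in KO2.

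**Figure D2:**
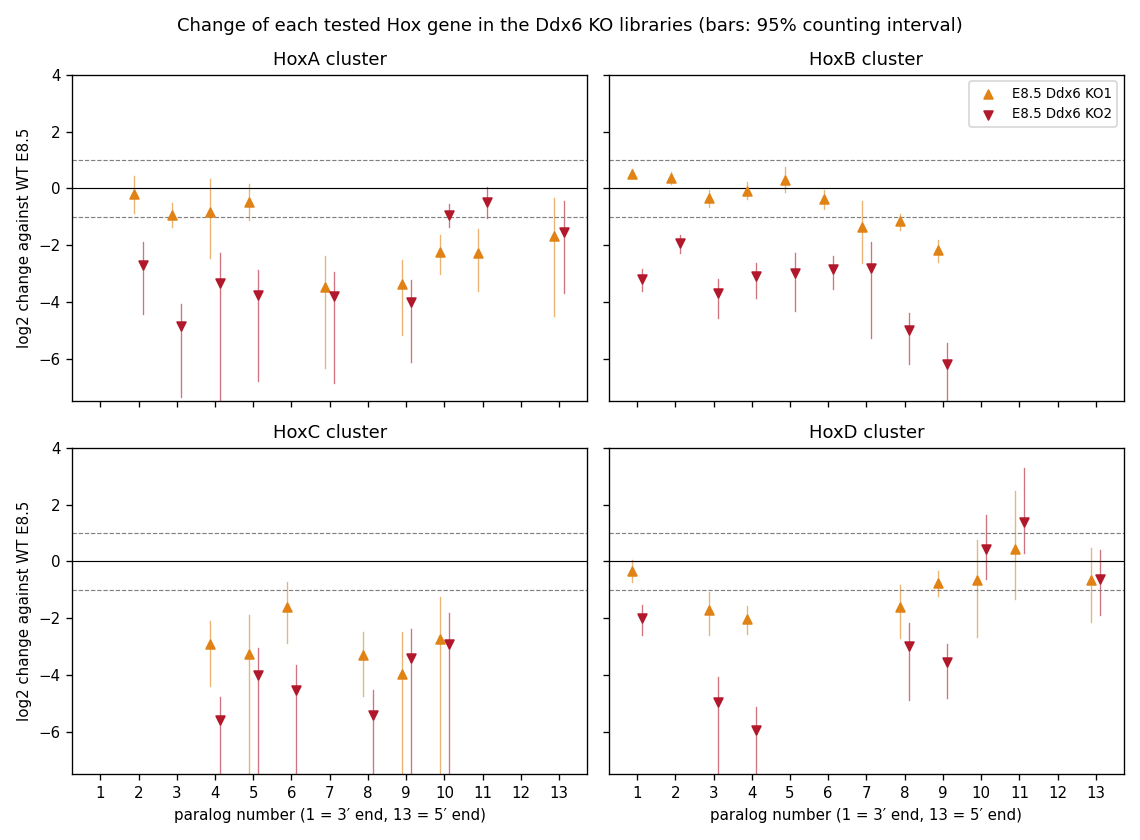
Log2 change of each tested Hox gene in KO1 (orange) and KO2 (red) against WT E8.5 by paralog number, with the 95% counting interval as a bar (cut at the lower edge of the axis where it runs on or has no lower end) and dashed lines at the thresholds of 1 and -1. In HoxB the KO1 points fall from 0.52 at Hoxb1 to -2.17 at Hoxb9; in HoxA and HoxD the KO2 points return toward 0 at groups 10 to 13.

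In KO1 the change tended to follow the order of the genes along HoxA and HoxB. The median was -0.32 for groups 1 to 3, -1.47 for groups 4 to 8 and -2.17 for groups 9 to 13. The 9 genes that had to be lower all lie in groups 4 to 13, and over the other 23 the medians were -0.32, -1.16 and -0.75, with no further fall beyond group 8. Spearman's rho between paralog number and log2 change was -0.92 over the 9 tested genes of HoxB and -0.62 over the 9 of HoxA, and -0.14 over the 6 of HoxC and 0.43 over the 8 of HoxD. All 9 HoxB genes and 5 of the 9 HoxA genes reached the minimum outside WT E8.5, and over those 5 rho was -0.9. The genes of a cluster share their libraries and differ in depth, so these values are descriptions. In KO2 the median was -3.18 for groups 1 to 3, -3.77 for groups 4 to 8 and -1.55 for groups 9 to 13, or -3.18, -3.10 and -0.63 over the 23, and rho was -0.35 in HoxB, 0.53 in HoxA, 0.77 in HoxC and 0.64 in HoxD. The order seen along HoxA and HoxB in KO1 was therefore not seen in KO2.

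Hoxb1 and Hoxb2 separated the KO libraries. Hoxb1 had 552 reads in KO1 and 60 in KO2, next to 567 in WT E8.5. Its log2 change was 0.52 in KO1 (0.35 to 0.69) and -3.18 in KO2 (-3.63 to -2.84). Hoxb2, a target of Hoxb1 in the hindbrain, had 371 and 109 reads next to 425, changes of 0.36 (0.16 to 0.57) and -1.92 (-2.26 to -1.64). For both genes KO1 was above WT E8.5 in CPM and KO2 was below both WT libraries, since WT E7.5 had 493 reads of Hoxb1 and 172 of Hoxb2. Hoxb5 went the same way, with 94 reads in WT E8.5, 79 in KO1 and 10 in KO2. Its change was 0.30 in KO1 (-0.14 to 0.76) and -2.96 in KO2 (-4.32 to -2.27).

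The other genes of groups 1 to 3 were lower in KO2 past the threshold, and in KO1 they stayed within it except Hoxd3. Hoxd1 had 92 reads in WT E7.5, 163 in WT E8.5, 88 in KO1 and 39 in KO2. Its changes against WT E8.5 were -0.32 (-0.72 to 0.05) and -1.99 (-2.59 to -1.53). Hoxa2 had 9, 58, 34 and 7 reads, changes of -0.20 (-0.87 to 0.43) and -2.70 (-4.41 to -1.899), and 15.0% of its exon bases lie in an annotated neighbour on the same strand. Hoxa3, which acts in the pharyngeal arches and the thymus, had 11, 178, 63 and 4 reads, and differed from WT E8.5 by -0.92 in KO1. Hoxb3 had 35, 289, 154 and 20. KO2 held the fewest reads of the 4 libraries for each of the 7 genes of groups 1 to 3. Hoxd3 had 2, 97, 19 and 1 reads. In KO1 it differed from WT E8.5 by -1.71 (-2.58 to -1.07), and its count is uncertain because 62.3% of its exon bases are shared with other annotated genes, Hoxd4 among them.

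Groups 4 to 8 were split by cluster in KO1. The HoxA and HoxB genes from 4 to 6 stayed within the threshold there. Hoxa4 had 3, 20, 7 and 0 reads in WT E7.5, WT E8.5, KO1 and KO2, and Hoxa5, which acts in lung and cervical vertebrae, had 1, 68, 33 and 3. Hoxb4, a gene also known from blood stem cells, had 54, 234, 150 and 25, and Hoxb6 had 29, 226, 118 and 29. Hoxa7, Hoxb7 and Hoxb8 were lower in KO1 as well, but Hoxa7 passed the minimum through WT E8.5 alone and so had to be lower. Hoxa7 had 4, 71, 3 and 3 reads, Hoxb7 had 11, 41, 10 and 4, and Hoxb8 had 25, 449, 135 and 12. Hoxa7 was thus at its E7.5 count in both KO libraries, whereas Hoxb8 in KO1 lay between the WT stages.

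The tested HoxC and HoxD genes of groups 4 to 8 were lower past the threshold in both KO libraries, against 1.74% of all genes tested. Of them Hoxc4, Hoxc5 and Hoxc8 passed the minimum through WT E8.5 alone and so had to be lower, which leaves Hoxc6, Hoxd4 and Hoxd8. Hoxc4 had 4, 104, 8 and 0 reads. It was 8.81-fold lower in KO1, a log2 change of -2.92 (-4.39 to -2.11), and at least 34.2-fold lower in KO2. Hoxc8 had 0, 134, 8 and 1 reads, 11.4-fold lower in KO1 and 132-fold lower in KO2, where a single read gives an interval of the log2 ratio from -12.4 to -4.55. Hoxc5 had 0, 33, 1 and 0 reads and Hoxc6 had 0, 49, 10 and 0. HoxC as a whole had 383 reads in WT E8.5, 33 in KO1 and 9 in KO2, next to 8 in WT E7.5. Hoxd4 had 13, 259, 42 and 2 reads, 4.18-fold lower in KO1 and 128-fold lower in KO2 (-10.1 to -5.13), but 52.3% of its exon bases are shared with Hoxd3 and another annotated gene, and its count is uncertain for that reason. Hoxd8 had 21, 63, 13 and 6.

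Of the group 9 genes, Hoxa9, Hoxb9 and Hoxc9 were lower in both KO libraries, against 1.74% of all genes tested. Hoxd9 was lower in KO2, against 5.89%. Hoxa9 and Hoxc9 passed the minimum through WT E8.5 alone and so had to be lower, which leaves Hoxb9 for both KO libraries. Hoxb9 had 11 reads in WT E7.5, 451 in WT E8.5, 67 in KO1 and 4 in KO2. It was 4.56-fold lower in KO1 (log2 -2.58 to -1.82) and 111-fold lower in KO2 (-8.68 to -5.43). Hoxa9 had 7, 113, 6 and 5 reads, changes of -3.38 (-5.15 to -2.51) and -3.99 (-6.13 to -3.22). Hoxc9 had 1, 32, 0 and 1 reads and Hoxd9 had 63, 153, 61 and 11. For Hoxa9 and Hoxc9 both KO libraries were near WT E7.5, while Hoxb9 in KO1 lay between the WT stages and Hoxd9 in KO2 lay under both.

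**Figure D3:**
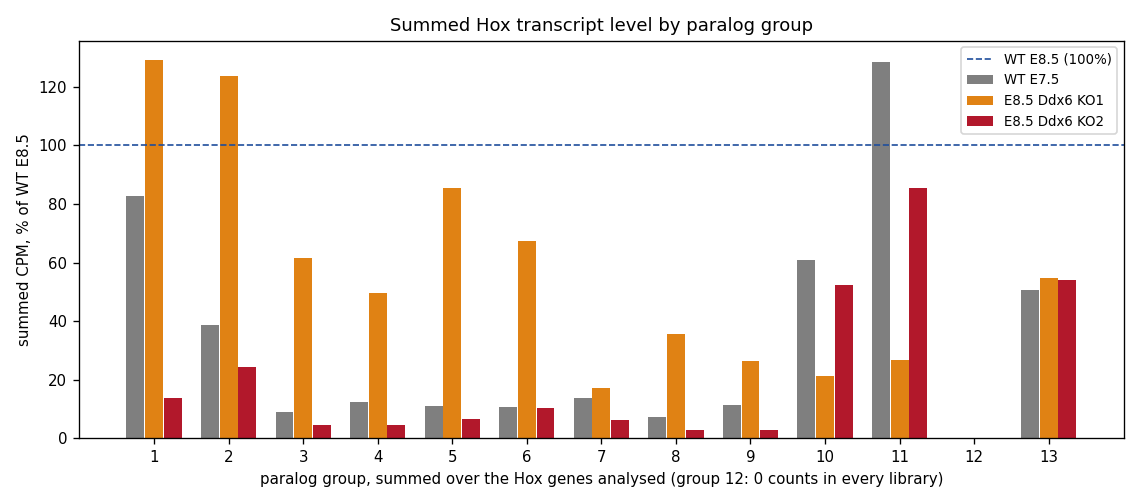
Summed CPM of each paralog group in WT E7.5, KO1 and KO2 as a percentage of its sum in WT E8.5 (dashed line). KO1 runs from 129% and 124% for groups 1 and 2 down to 17.1% for group 7 and 21.2% for group 10, and KO2 stays between 2.84% and 24.3% for groups 1 to 9 and reaches 52.4%, 85.4% and 54.2% for groups 10, 11 and 13.

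At the 5′ ends of HoxA and HoxD, Hoxa10, Hoxa11 and Hoxd10 had more transcript in KO2 than in KO1. Hoxa10, known from the lumbar spine and the uterus, had 93 reads in WT E7.5, 160 in WT E8.5, 22 in KO1 and 82 in KO2. Hoxa11 had 66, 72, 9 and 51, and Hoxd10 had 22, 13, 5 and 18. KO2 was above KO1 by more than 1 for these 3 genes alone among the 32 (9.4%), a share near the 5.93% of all genes tested. Hoxa13 and Hoxd13 differed by 0.13 and 0.04. The log2 differences of KO2 from KO1 were 1.30 for Hoxa10 (0.66 to 2.11), 1.80 for Hoxa11 (0.92 to 3.17) and 1.09 for Hoxd10 (-0.18 to 3.09). Lower in KO2 than in KO1 were 21 Hox genes, against 4.97%, and 19 of them belonged to groups 1 to 8. Hoxd11 had 36, 6, 6 and 19 reads, and was the 1 Hox gene higher by more than 1 in a KO library than in WT E8.5, at 1.39 in KO2 (0.30 to 3.29) and 0.43 in KO1 (-1.34 to 2.46).

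The group 13 genes differed less. Hoxd13, the 5′-most gene of HoxD, had 12, 20, 8 and 12 reads, changes of -0.66 in KO1 (-2.15 to 0.48) and -0.63 in KO2 (-1.89 to 0.38). Hoxa13 had 4, 19, 3 and 5 reads, changes of -1.68 (-4.50 to -0.34) and -1.55 (-3.69 to -0.44), and it passed the minimum through WT E8.5 alone. Hoxc10, the 5′-most HoxC gene with at least 10 reads, had 0, 22, 1 and 1 reads and was lower in both KO libraries, with log2 changes of -2.72 and -2.91. It too passed the minimum through WT E8.5 alone, and Hoxc13, with too few reads to be tested, had 4 reads in WT E8.5, 5 in KO1 and 6 in KO2. Genes 10 to 13 of HoxA and HoxD made up a share of the reads of all Hox genes analysed of 17.7% in WT E7.5 (exact 95% interval 15.6% to 19.8%), 6.17% in WT E8.5 (5.50% to 6.90%), 2.53% in KO1 (1.904% to 3.30%) and 34% in KO2 (30.05% to 38.1%).

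Some genes of the maternal decidua and uterus were, like these 5′ genes, higher in WT E7.5 and KO2 than in KO1, but they were low in WT E8.5, where the 5′ genes were not. Genes 10 to 13 of HoxA and HoxD summed to 19.5 CPM in WT E7.5, 23.5 in WT E8.5, 6.34 in KO1 and 15.4 in KO2. Uterine tissue also expresses Hoxa10 and Hoxa11. Prl8a2, a decidual prolactin, had 1318 reads in WT E7.5, 26 in WT E8.5, 64 in KO1 and 1433 in KO2. Prl3c1 had 135, 1, 0 and 25 reads, and Esr1, the oestrogen receptor, had 20, 7, 2 and 28. The 8 decidual and uterine genes listed after these values were seen (Prl8a2, Prl3c1, Prl6a1, Esr1, Pgr, Igfbp1, Cryab and Dcn) summed to 158, 20.4, 32.5 and 146 CPM. Of the 8, 4 were higher in KO2 than in KO1 by more than 1 and 0 were lower, where all genes tested had 5.93% and 4.97%. Since the list was made with its values known, these shares do not test it. Among the 4, Prl6a1 had 0 reads in KO1 and 3 in KO2, and 0 reads allow up to 3. The other genes of the list differed less between KO2 and KO1 or had few reads. Pgr had 77, 64, 57 and 132 reads, Igfbp1 had 121, 27, 12 and 31, and Prl6a1 had 17, 1, 0 and 3. Cryab had 178, 102, 118 and 108 and Dcn, a stromal matrix gene, had 13, 23, 19 and 20, so both were lower in CPM in KO2 than in KO1. Their part in the levels of the 5′ Hox genes was not tested. Tbx4, a marker of the allantois, an extraembryonic outgrowth that also expresses posterior Hox genes, had 20, 799, 56 and 5 reads. It was the 1 of 4 listed markers of extraembryonic mesoderm and allantois lower past the threshold in either KO library. The 4 (Tbx4, Hand1, Bmp4 and Tbx20) summed to 283 CPM in WT E7.5, 376 in WT E8.5, 606 in KO1 and 435 in KO2.

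**Figure D4:**
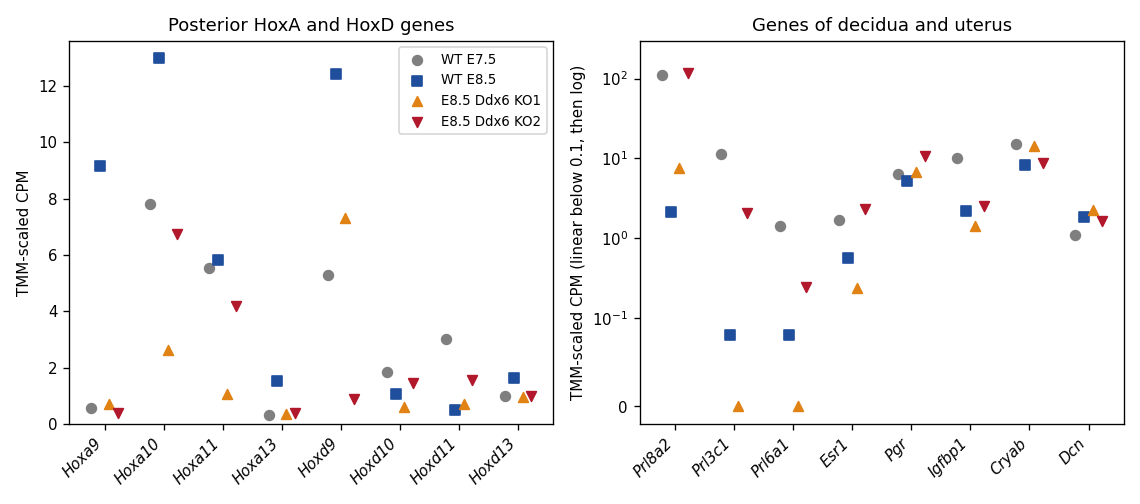
TMM-scaled CPM of the posterior HoxA and HoxD genes (left, linear axis from 0) and of 8 genes of decidua and uterus (right, linear below 0.1 and log above) with 1 symbol per library. Hoxa10 and Hoxa11 stand higher in WT E7.5, WT E8.5 and KO2 than in KO1, and Prl8a2, Prl3c1 and Esr1 stand higher in WT E7.5 and KO2 than in WT E8.5 and KO1.

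Against WT E7.5 the KO libraries parted in direction. KO1 had 16 Hox genes higher by more than 1, against 13.3%, and 4 lower, against 7.34%, which were Hoxa10, Hoxa11, Hoxd10 and Hoxd11. KO2 had 0 higher, against 10.9%, and 11 lower, against 4.02%. The 11 included Hoxb1 and Hoxd1 as well as Hoxb4, Hoxd4 and Hoxd9. In both KO libraries 0 Hox genes were higher, against 7.02%, and 0 were lower, against 2.67%. KO1 lay between the WT stages for 22 of the 32 Hox genes, against 20.8% of all genes tested, and KO2 lay below both WT libraries for 24, against 25.3%. Levels in KO1 were thus mostly above those of WT E7.5 and levels in KO2 mostly under them.

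The spread between KO1 and KO2 set what the test could call. The median of the 32 Hox genes had a mean of -2.26 ± 1.41 (SD, n = 2 KO libraries) against WT E8.5. For Hoxb1 the mean change was -1.33 ± 2.61 and for Hoxb9 it was -4.17 ± 2.84, whereas it was -3.68 ± 0.43 for Hoxa9 and -0.65 ± 0.02 for Hoxd13 (SD, n = 2). The edgeR quasi-likelihood test, two-sided and adjusted over all genes tested, called 0 Hox genes and 0 of 14393 genes against WT E8.5. At an unadjusted p under 0.05 it had 8 Hox genes lower (Hoxa7, Hoxa9, Hoxc4, Hoxc5, Hoxc8, Hoxc9, Hoxc10 and Hoxd8), against 2.78% of genes, and 0 higher, against 4.59%. Of these 8, 7 passed the minimum through WT E8.5 alone. Hoxa9 came lowest in edgeR, at an unadjusted p of 0.00259 (adjusted p 0.663). DESeq2 called 14 genes higher (0.0973%) and 17 lower (0.118%) against WT E8.5, with 0 Hox genes among them, and gave no adjusted p for 17 of the 32. Against WT E7.5 edgeR called 0 genes, and at an unadjusted p under 0.05 it had 0 Hox genes higher, against 14.1%, and 0 lower, against 10.5%. DESeq2 called 2.88% of genes higher and 2.13% lower than WT E7.5, with 0 Hox genes among them. An exact permutation of 1 library against 2 cannot go under p = 0.333, and the edgeR and DESeq2 tests take their spread from the 2 KO libraries alone.

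Regulators of Hox transcription were lower in KO2 in larger number than in KO1. Of 18 listed genes, 10 were lower than WT E8.5 by more than 1 in KO2, against 5.89% of all genes tested. In KO1 3 were lower, against 3.18%. In KO2 and KO1 0 were higher, against 9.48% and 5.07%. The Cdx genes were all lower in KO2, and in KO1 Cdx4 alone of them passed the threshold. Cdx1 had 118 reads in WT E7.5, 1391 in WT E8.5, 806 in KO1 and 22 in KO2, and Cdx4 had 27, 387, 68 and 5. Cdx2 had 990, 1326, 653 and 150 reads, and it is also expressed in trophoblast. Cdx1 in KO2 was therefore under its level of either WT stage, as Hoxb1 and Hoxd1 were. Aldh1a2, which makes retinoic acid in the trunk mesoderm, had 80, 1723, 1385 and 78 reads, and Rarb, a retinoic acid receptor gene that retinoic acid itself induces, had 21, 296, 246 and 92.

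Not all regulators were lower in KO2. T (Brachyury), of the primitive streak, had 3864, 934, 829 and 1485 reads, with changes of 0.39 in KO1 and 0.69 in KO2. Cyp26a1, which breaks down retinoic acid, had 996, 572, 223 and 667 reads, so that KO2 was higher than KO1 by 1.03 on the log2 scale. Fgf8 had 138, 217, 65 and 226 reads and was higher in KO2 than in KO1 as well. Egr2, which marks hindbrain segments and activates Hoxa2 and Hoxb2, had 7, 35, 5 and 4 reads, and Gbx2 had 230, 515, 273 and 47. Egr2 and Cdx4 were the 2 regulators lower past the threshold in both KO libraries.

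**Figure D5:**
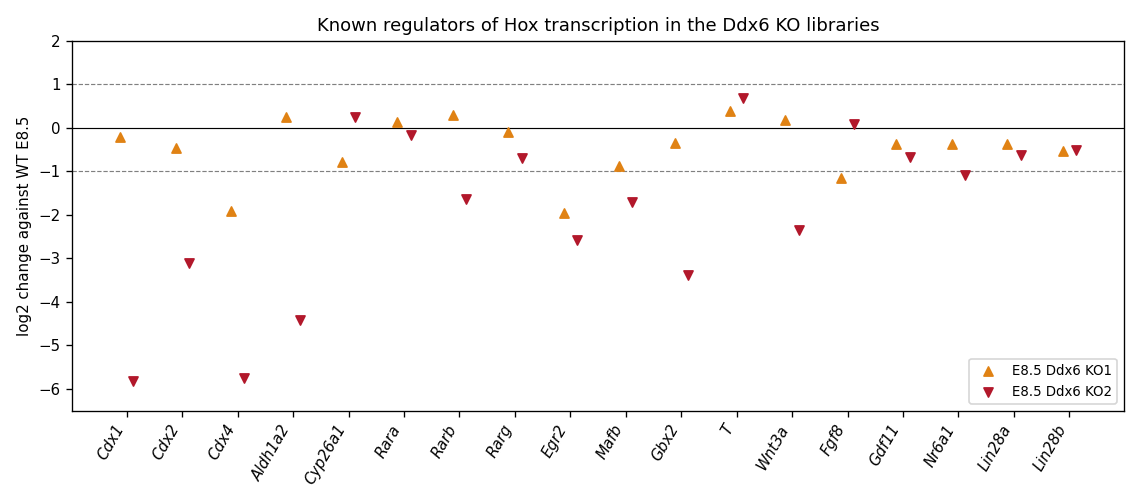
Log2 change of 18 regulators of Hox transcription in KO1 (orange) and KO2 (red) against WT E8.5, with dashed lines at 1 and -1. Cdx1, Cdx2, Aldh1a2, Gbx2 and Wnt3a lie within the threshold in KO1 and between -5.83 and -2.36 in KO2, while T, Fgf8 and Cyp26a1 do not fall below WT E8.5 in KO2.

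Markers of the embryonic regions in which Hox genes are active were also low in KO2. The 8 markers of trunk paraxial mesoderm summed to 123 CPM in WT E7.5, 185 in WT E8.5, 160 in KO1 and 48.9 in KO2. In KO2 7 of 8 were lower than WT E8.5, against 5.89% of all genes tested. In KO1 2 of 8 were (Tcf15 and Uncx), against 3.18%. Uncx, with 8, 14, 1 and 5 reads, passed the minimum through WT E8.5 alone and so had to be lower. Meox1, of the somites, had 3, 390, 235 and 6 reads. The 7 markers of posterior progenitors, 3 of them Cdx genes, summed to 472, 428, 373 and 166 CPM. Hindbrain markers (4 genes) summed to 58.1, 68.1, 55.6 and 28.7 CPM, and forebrain and midbrain markers (7 genes), where Hox genes are silent, to 89.7, 170, 130 and 214. The higher sum of the latter in KO2 did not hold for most of the 7. In KO2 4 of them were lower than WT E8.5, against 5.89%, and 1 was higher, against 9.48%. Their median change in KO2 was -1.18, next to -2.14 for the hindbrain markers. The part of these tissues in the Hox values was not tested.

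Of the proteins that bind DNA with Hox factors, Meis1, Meis2 and Pknox2 were lower in KO2. Meis1 had 132, 627, 388 and 161 reads in WT E7.5, WT E8.5, KO1 and KO2, Meis2 had 338, 1475, 1111 and 410, and Pknox2 had 232, 653, 383 and 190. The other 6 of the 9 listed cofactors, the Pbx genes among them, stayed within the threshold in both KO libraries. Of 23 Polycomb and Trithorax genes analysed, 0 were past it in either KO library, and their median change was -0.04 in KO1 and -0.01 in KO2.

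Several non-coding transcripts inside the clusters were ordered across the libraries like the genes around them. Hoxaas3, in the middle of HoxA, had 0, 148, 36 and 0 reads, and Hotairm1, at its 3′ end, had 14, 159, 95 and 9. Hoxb5os had 0, 31, 2 and 0. At the 5′ end of HoxA, Hoxa11os, antisense to Hoxa11, had 42, 26, 6 and 18 reads, with WT E7.5 and KO2 above KO1. Of 10 such transcripts tested, 6 were lower in KO2 than in WT E8.5, against 5.89% of all genes tested. In KO1 4 were lower, against 3.18%, and 0 were higher in either, against 9.48% in KO2 and 5.07% in KO1. Hoxb5os and Gm53 (4, 20, 1 and 0 reads) passed the minimum through WT E8.5 alone and so had to be lower. Hotair and Hottip had 0 counts in each library. The miRNA genes of the clusters had between 0 and 2 reads each in these poly(A) libraries, Mir3072 excepted, so the mature miRNAs printed above were not measured.

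Most genes next to the clusters stayed within the threshold. Of 12 flanking genes tested, 2 were lower than WT E8.5 in KO2, against 5.89% of all genes tested. In KO1 1 was higher, against 5.07%, and 0 were past the threshold in both in the same direction. Ttll6, with 4, 6, 15 and 1 reads, was past it in both, upward in KO1 and downward in KO2. Evx1, beside the 5′ end of HoxA, had 562, 369, 184 and 363 reads. Skap2, at the 3′ end, had 165, 369, 252 and 155, and Mtx2, next to HoxD, had 585, 660, 515 and 807. The median change of the 12 was 0.01 in KO1 and -0.01 in KO2.

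Hox genes with the miR-196 letters were set beside the others as a description. Their 5 changes had a median of -1.35 in KO1 and -3.74 in KO2, next to -1.16 and -3.18 for the 27 tested Hox genes without them. They ran from -3.47 to -0.37 in KO1 and from -5.40 to -2.79 in KO2. Of the 5, Hoxa7 and Hoxc8 passed the minimum through WT E8.5 alone and so had to be lower, as had some of the 27. Direction therefore cannot tell genes with and without the letters apart. The 3 genes with the miR-10 letters had medians of -0.34 and -3.70, next to -1.59 and -3.18 for the other 29. With 5 and 3 genes of different clusters and groups, position and site cannot be told apart. The genes whose promoters held the Cdx letters, Hoxb8 and Hoxd4, had 449 and 259 reads in WT E8.5, 135 and 42 in KO1, and 12 and 2 in KO2. In the same libraries Cdx1 had 1391, 806 and 22 reads, Cdx2 had 1326, 653 and 150, and Cdx4 had 387, 68 and 5. Hox genes whose promoters lacked the letters lay on both sides of Hoxb8 and Hoxd4 in KO1. The log2 change was -3.38 for Hoxa9 and -2.92 for Hoxc4 (which passed the minimum through WT E8.5 alone), but -0.08 for Hoxb4 and 0.52 for Hoxb1. The part of the Cdx factors was not tested.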

How the data were processed

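Polyadenylated RNA of whole embryos was sequenced in 4 libraries with a stranded kit. Per the authors' methods and processing notes, reads were trimmed with Cutadapt 2.8, aligned to mm10 with HISAT2 2.1.0, sorted with SAMtools 1.9 and counted strand-specifically over exons with featureCounts 2.0.0. The authors deposited raw counts per gene with no normalization, and 0 further columns were left unused.

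Groups came from the sample labels. Counts of genes with at least 10 reads in at least 1 library (14393) were scaled by TMM (trimmed mean of M-values) in edgeR 4.0.16 (R 4.3.3), and log2 changes were differences of log2 CPM with a prior count of 2, which draws low counts toward 0. A change was called past 1 or -1, the study's criterion, and in both KO libraries for KO. A fold against 0 reads used a floor of 3 reads. Intervals were 95% Clopper-Pearson intervals of the 2 counts, on the log2 ratio without the prior. KO was tested against each WT stage with edgeR's quasi-likelihood F-test with Benjamini-Hochberg adjustment in 1 fit of 3 groups, where the spread comes from the KO libraries alone. DESeq2 1.42.0 was the alternative. The fit was tested on simulated counts.

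Exon lengths, overlaps and 3′ UTRs came from GENCODE vM21 (GRCm38, the assembly of mm10), and promoters and miRNAs from RefSeq. The study's counting used another annotation, so lengths and overlaps are approximate. Figures were drawn with matplotlib 3.10.9.

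The members and gene lists were chosen with earlier results of these data known. Results for 2 genes, 1 of them a member, are not reported here and enter no sum, count or median of a gene list. All other members are named with their counts. Changes and intervals are given for the end genes of each cluster, the 5 most and 5 least lowered, those higher or opposite in the KO libraries, the smallest edgeR p, and, chosen after their values were seen, Hoxa10 and Hoxa11. In the other lists, passing the threshold in KO1 and KO2 alike, or from WT E7.5 to WT E8.5, was a reason to name a gene. The naming was incomplete, so a gene left out is not thereby unchanged. En1, Pax2 and Apoa1, lower than WT E8.5 by more than 1 in KO1 and in KO2, were left out. So were Lin28b, Nr6a1, Lnp, Gdf11 and Meis3, among others, which were higher by more than 1 at WT E8.5 than at WT E7.5. Other named genes, such as Cdx2, T, Cyp26a1, Fgf8, Dcn, Esr1, Mtx2 and Evx1, were chosen after their values were seen. The list of 8 decidual and uterine genes and the counts, medians and correlations over genes that pass the minimum outside WT E8.5 were also added then.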

Additional observations from a re-analysis of the deposited data

How the results depend on the processing

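No paired analysis was possible because each WT stage has 1 library and shares fewer than 2 replicate numbers with the KO group. Of 628 alternative values, 584 kept their direction and stayed within the spread between the KO libraries or, for counts, within 1.5 times, 42 moved and 2 reversed. Without the filter on low counts, 2 Hox genes instead of 1 were lower at WT E8.5 than at WT E7.5 and 1 instead of 0 was lower in both KO libraries than WT E7.5. With a minimum of 50 counts these were 0 for the WT stages, and 9 instead of 15 were lower in both KO libraries than WT E8.5. A threshold of 2 also left 9, and it left 0 instead of 3 higher in KO2 than in KO1. A prior count of 0.5 gave 5 for that count, and 3 instead of 0 higher in both KO libraries than WT E7.5. Requiring the minimum outside WT E8.5 left 7 instead of 15 lower in both KO libraries and 16 instead of 25 higher at WT E8.5, since fewer genes enter. With a single KO library the count lower than WT E8.5 ran from 17 (without KO replicate 2) to 27 (without KO replicate 1), and the count higher from 0 to 1. Against WT E7.5 the count higher ran from 0 to 16 and the count lower from 4 to 11. Without KO replicate 2 the mean change against WT E8.5 reversed for Hoxb1 and Hoxb5. With a single KO library it ran from -3.18 to 0.52 for Hoxb1 and from -2.96 to 0.30 for Hoxb5. With a minimum of 50 counts the rank correlation of paralog number with change over all tested Hox genes went from -0.24 to 0.04 between the WT stages and from 0.33 to -0.07 in KO2 against WT E8.5, so no trend over all clusters is stated for these. DESeq2 size factors and plain CPM moved none of these counts past 1.5 times. Depth limits HoxC and the group 12 and 13 genes, most of which have under 10 reads in a KO library.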
